A study of Mus musculus with 12 samples.

Results

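The renin-angiotensin system was followed through 9 genes in the renal cortex of mice with and without diabetes. The genes were every row of the deposited table of 55421 genes whose name was Ren1, Agt, Ace, Agtr1a, Agtr1b, Enpep, Mme, Atp6ap2 or Mas1. In this system renin, an aspartyl protease of the juxtaglomerular cells of the afferent arteriole, cleaves angiotensinogen to angiotensin I. Angiotensin-converting enzyme then makes angiotensin II, which constricts vessels and drives sodium retention through the AT1 receptor. In the kidney renin is stored at the vascular pole of the glomerulus, while angiotensinogen, converting enzyme and most angiotensin-degrading peptidases are made by, or sit on, the proximal tubule.

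Renal cortical RNA came from 12 male mice, 3 in each of 4 groups. WT-D mice were wild-type and were made diabetic with streptozotocin, a toxin of pancreatic beta cells, by intraperitoneal injection of 50 mg/kg on 5 consecutive days. WT-C mice were wild-type, non-diabetic and, per the study's methods, injected with citrate buffer. KO-D mice carried the ANRIL knockout and were made diabetic in the same way, and KO-C mice carried the knockout and were non-diabetic. The paper's text states that KO-D mice stayed hyperglycemic. The caption of its first figure instead counts raised blood glucose among the changes prevented in KO-D mice. The paper also reports less urine in KO-D than in WT-D mice and a normalized urinary albumin to creatinine ratio. The knockout deletes a noncoding interval of the Ink4 locus on chromosome 4, and the controls were littermates that were matched for age and sex. Tissue was taken 2 months after induction. The labels name 129S6/SvEvTac-Del[4C4-C5]1Lap/Mmcd as the strain of all 4 groups, wild-type mice included, with an age of 8 weeks, and the streptozotocin protocol for every sample. No gene of the annotation is named ANRIL, so the knockout was not checked on its own transcript. Its neighbour Cdkn2b had 0.0632 to 0.985 CPM in KO-D mice, against 1.72 to 2.22 CPM in WT-D mice. It had 0.0290 to 2.96 CPM in KO-C mice, against 0.544 to 2.33 CPM in WT-C mice.

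Libraries held 23781928 to 67336174 counted reads, and values are counts per 1000000 counted reads (CPM) after scaling by TMM, which sets libraries to a common level over most genes. The lowest factor was 0.737 in WT-C and the highest 1.28 in KO-D. Left unscaled, the 18461 tested genes had a median log2 change of 0.42 for wild-type and 0.35 for knockout diabetes, compared with 0.05 and 0.02 after scaling. On the first principal component WT-D replicate 3 stood at 5.92, between the other diabetic libraries (47.9 to 66.0) and the control libraries (-65.5 to -33.0). WT-D replicate 1 stood apart in markers of neighbouring tissue. It had 24.8 CPM of the adipocyte hormone gene Adipoq (at most 1.74 in any other library) and 8.37 CPM of the adrenal steroid 21-hydroxylase gene Cyp21a1 (at most 0.206 in any other). Leaving out either library changed no call given below for the 9 genes. Proximal tubule markers (2840 to 9320 CPM summed over 10 genes) and podocyte markers (54.1 to 273 over 8 genes) were present in every library, so the RNA held tubule and glomerulus. The labels call the 3 samples of a group biological replicates, and p-values measure the spread between them.

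Of the 9 genes, 8 passed the filter on low counts and were tested among 18461 genes, and Agtr1b did not. Changes below are log2 differences of scaled CPM + 0.1, and a gene is called where limma's p, adjusted by Benjamini-Hochberg over all tested genes, was under 0.05. In WT-D against WT-C, Ren1 and Mas1 were called higher and none lower, 2 of 8, where 22.0% of all tested genes were called (13.7% higher and 8.22% lower). In KO-D against KO-C, Ren1 and Mas1 were higher and Ace and Enpep lower, 4 of 8, where 31.1% of all genes were called (13.6% higher and 17.4% lower). With 8 genes these shares are not results about the group, so the results are those of the single genes. The WT-D mice lay wholly above the WT-C mice for 3 of 8 genes (20.9% of all genes) and wholly below for 1 (15.8%). The KO-D mice lay wholly above the KO-C mice for 2 genes (22.6%) and wholly below for 2 (25.4%). Averaged over both genotypes, 2 of 8 were called higher and 2 lower, where 43.5% of all genes were called. The median change of the 8 genes was 0.22 in wild-type and 0.03 in knockout mice, beside 0.05 and 0.02 over all genes. At the stricter threshold of 0.01, Ren1 and Mas1 remained in wild-type mice (8.33% of all genes called) and Ren1, Mas1 and Ace in knockout mice (17.1%).

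**Figure D1:**
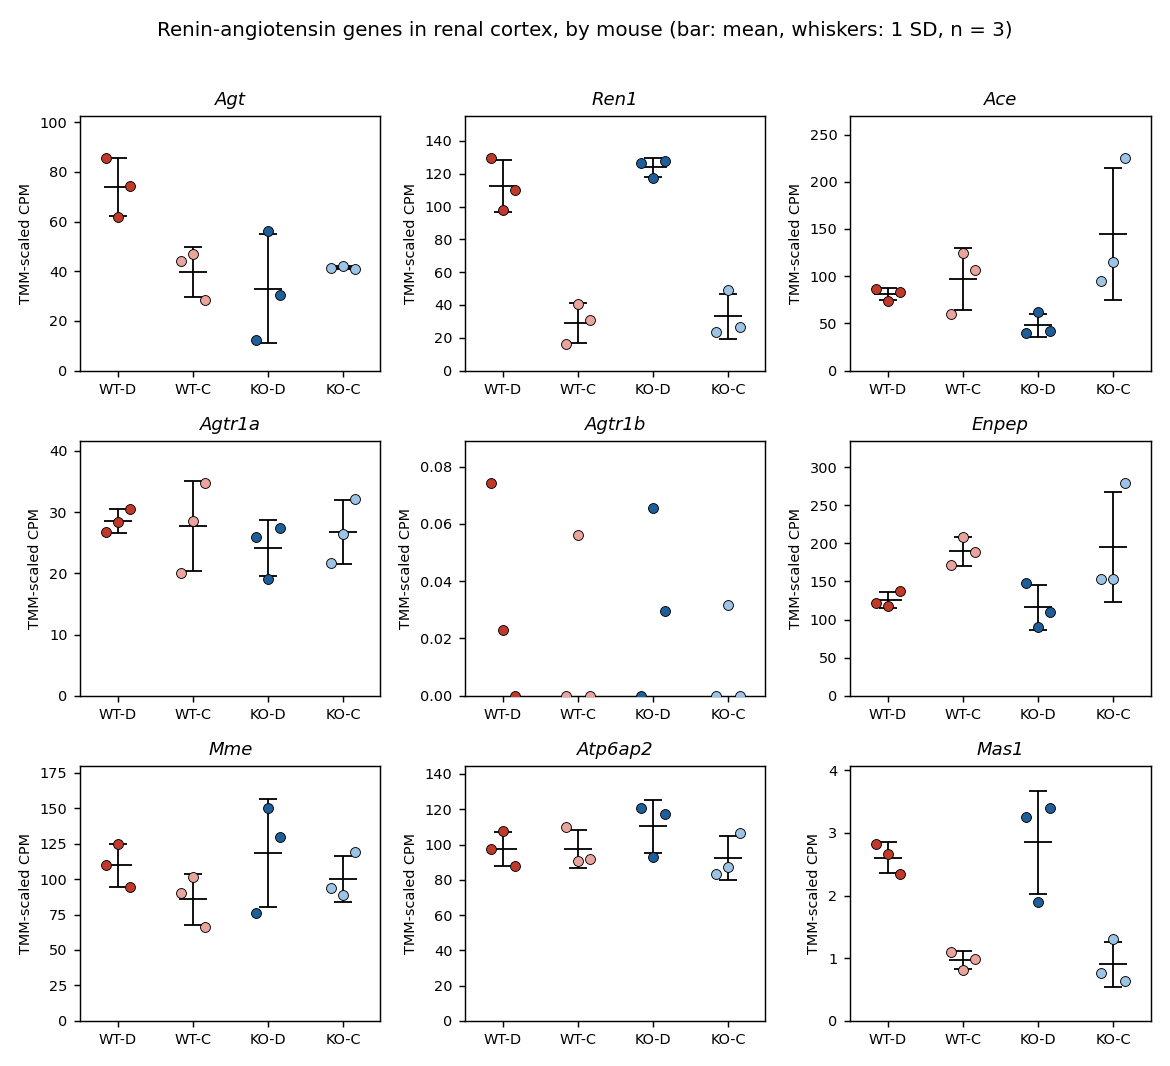
TMM-scaled CPM (y axis, from 0, a scale of its own in each panel) of the 9 genes in every mouse of the WT-D, WT-C, KO-D and KO-C groups. Points are mice, bars means and whiskers 1 SD (n = 3), and Agtr1b has points only because 6 of its 12 values are 0. All 6 diabetic mice lie above all 6 controls for Ren1 (98.1 to 130 CPM against 16.2 to 48.9 CPM), and for Mas1 (1.90 to 3.39 CPM against 0.637 to 1.30 CPM).

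Ren1 and Mas1, the 2 genes that moved together in both genotypes, start from unlike promoters, shown here as the 250 bases before the RefSeq start in build GRCm38.p6 on the strand of each gene, 5′ to 3′. The Ren1 window is chr1:133350424-133350673 on the plus strand and the Mas1 window chr17:12868144-12868393 on the minus strand. Capitals mark every match, on either strand, to TATAAA, to TGATTNAT (the consensus shared by PBX-HOX factor pairs), to TGACGTCA (the cyclic AMP response element, abbreviated CRE) and to CCAAT.
Ren1: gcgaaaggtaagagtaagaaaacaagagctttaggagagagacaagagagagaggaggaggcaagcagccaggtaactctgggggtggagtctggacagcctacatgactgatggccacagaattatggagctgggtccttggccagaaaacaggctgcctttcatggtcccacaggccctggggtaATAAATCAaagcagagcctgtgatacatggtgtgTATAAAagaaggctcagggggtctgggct
Mas1: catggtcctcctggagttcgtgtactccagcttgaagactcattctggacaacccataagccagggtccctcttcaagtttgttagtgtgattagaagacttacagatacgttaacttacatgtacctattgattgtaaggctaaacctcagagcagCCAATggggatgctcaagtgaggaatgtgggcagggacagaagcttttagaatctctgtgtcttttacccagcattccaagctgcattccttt
In Ren1 the capitals are the PBX-HOX consensus read on the opposite strand, 63 to 56 bases before the start, and TATAAA 29 to 24 bases before it. In Mas1 they are 1 CCAAT, 93 to 89 bases before the start. Among 32851 RefSeq windows of the same length, 12.4% held TATAAA, 2.82% TGATTNAT, 1.55% TGACGTCA and 33.8% CCAAT. Windows were found for 8 of the 9 genes, with none for Agtr1a. Of these 8, the Ren1, Agt and Agtr1b windows held TATAAA on the gene strand, and the Ace and Enpep windows on the opposite strand only. The Ren1 window alone held TGATTNAT. The GENCODE start of Ren1 (133350510) lies inside its window. These are the letters of the reference strain and not of the mice sequenced.

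Agt, the gene of the renin substrate angiotensinogen (ENSMUSG00000031980, chromosome 8, 124556534 to 124569706, minus strand, mm10), had 85.5, 62.0 and 74.3 CPM in the WT-D mice, against 44.0, 47.1 and 28.4 CPM in the WT-C mice. Every WT-D value exceeded every WT-C value. The log2 difference was 0.91 (SE 0.39), with a 95% interval of 0.08 to 1.75, and limma's adjusted p was 0.103, so that Agt was not called. On unscaled CPM it was 1.30 with an adjusted p of 0.0399, and in a fit to the 2 wild-type groups alone the adjusted p was 0.0244. Without KO-D replicate 1 the adjusted p of this wild-type comparison was 0.0158 and without KO-D replicate 2 it was 0.0356, since all 12 libraries share 1 estimate of the spread. Without WT-D replicate 1, the library with adipocyte and adrenal markers, the difference was 0.80 (limma, adjusted p = 0.282).

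In the knockout the 3 KO-D mice spread widely, with 12.4, 56.1 and 30.2 CPM of Agt, against 41.4, 41.9 and 40.9 CPM in the KO-C mice. KO-D replicate 2 lay above all KO-C mice and the other KO-D mice below them. The log2 difference was -0.58 (SE 0.39, adjusted p = 0.275 in limma), was -0.01 without KO-D replicate 1 and was -1.09 (adjusted p = 0.0222) without KO-D replicate 2. All KO-D values lay below all WT-D values, and KO-D against WT-D was -1.40 (SE 0.39, adjusted p = 0.0522), a difference of 0.378-fold that limma did not call. It was called with genes of at least 1 CPM only (adjusted p = 0.0473), by DESeq2 (-1.13, adjusted p = 0.032) and without KO-D replicate 2 (-1.91, adjusted p = 0.00581). The diabetes effect on Agt was lower in the knockout than in the wild type by 1.49 on the log2 scale (95% interval -2.67 to -0.32, adjusted p = 0.211), and by 2.00 without KO-D replicate 2 (adjusted p = 0.0316). The 6 adipocyte markers summed to 5.94 to 176 CPM in the WT-D mice, against 14.0 to 37.5 CPM in the WT-C mice. They summed to 2.50 to 3.75 CPM in the KO-D mice, against 22.0 to 31.6 CPM in the KO-C mice. Most of these sums in WT-C, KO-D and KO-C was 1 gene, Car3, which averaged 29.0, 3.01 and 25.8 CPM there. Adipoq was 0 in the WT-C mice, at most 0.0297 CPM in KO-D and 0.0952 to 1.74 CPM in KO-C. The sums of the control groups are therefore not a measure of fat. The part of the adipocyte markers in the Agt values was not tested.

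Ren1, which encodes renin (ENSMUSG00000070645, chromosome 1, 133350510 to 133360325, plus strand), had 130, 98.1 and 110 CPM in the WT-D mice, against 16.2, 40.3 and 30.7 CPM in the WT-C mice. The lowest diabetic mouse stood above the highest control. Ren1 rose by 2.04 on the log2 scale (SE 0.30, 4.10-fold, limma adjusted p = 0.000885), a larger change than that of 98.1% of the tested genes. The KO-D mice had 126, 117 and 128 CPM, against 23.5, 48.9 and 26.5 CPM in the KO-C mice, and again the groups did not overlap. Ren1 rose by 1.98 (SE 0.30, 3.95-fold, adjusted p = 0.000451 in limma). The diabetes effect differed between the genotypes by -0.05, with a 95% interval of -0.98 to 0.87, so a difference of nearly 1 log2 unit either way lies within the error. KO-D against WT-D was 0.15 (adjusted p = 0.856). All 6 diabetic mice stood above all 6 controls, as they did for 9.04% of all genes. Over both genotypes the rise was 2.01 (SE 0.21, adjusted p = 2.1e-05), and it stayed called under each alternative tried in each genotype, at 1.67 to 2.42 in wild-type and 1.78 to 2.33 in knockout mice. Mice of the background strain carry Ren2, a near-identical copy of Ren1, whereas mm10 derives from C57BL/6J, a strain with Ren1 alone. Reads of Ren2 can therefore have been counted under Ren1, and Ren2 was not analysed here.

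Markers of the vessel wall and the glomerulus moved with Ren1. Of all tested genes, 13.7% were called higher in wild-type and 13.6% in knockout diabetes. Of 12 markers of renin cells and mural cells, 10 were called higher in wild-type and 7 in knockout diabetes, with none lower. The median change of these 12 was 1.40 and 1.17, beside 0.05 and 0.02 over all genes. Their summed level was 127 to 167 CPM in WT-D, 47.4 to 70.0 in WT-C, 89.4 to 156 in KO-D and 45.2 to 64.0 in KO-C. Averaged over both genotypes, the smooth muscle actin gene Acta2 rose by 1.32, the pericyte receptor gene Pdgfrb by 1.45, the adhesion molecule gene Mcam by 1.38 and Gja5, which encodes the connexin of renin cells, by 1.13 (SE 0.14 to 0.19, adjusted p 1.6e-05 to 0.000222 in limma). Podocyte markers were called higher for 7 of 8 genes in each genotype, and summed to 159 to 273 CPM in WT-D, 54.1 to 114 in WT-C, 207 to 269 in KO-D and 91.5 to 112 in KO-C. Endothelial markers were higher for 6 of 8 genes in wild-type and 4 of 8 in knockout mice, and macrophage markers for 6 of 8 and 5 of 8. In bulk tissue, a change in the number of cells of a type and a change in RNA per cell cannot be told apart, and the part of these markers in the Ren1 change was not tested.

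**Figure D2:**
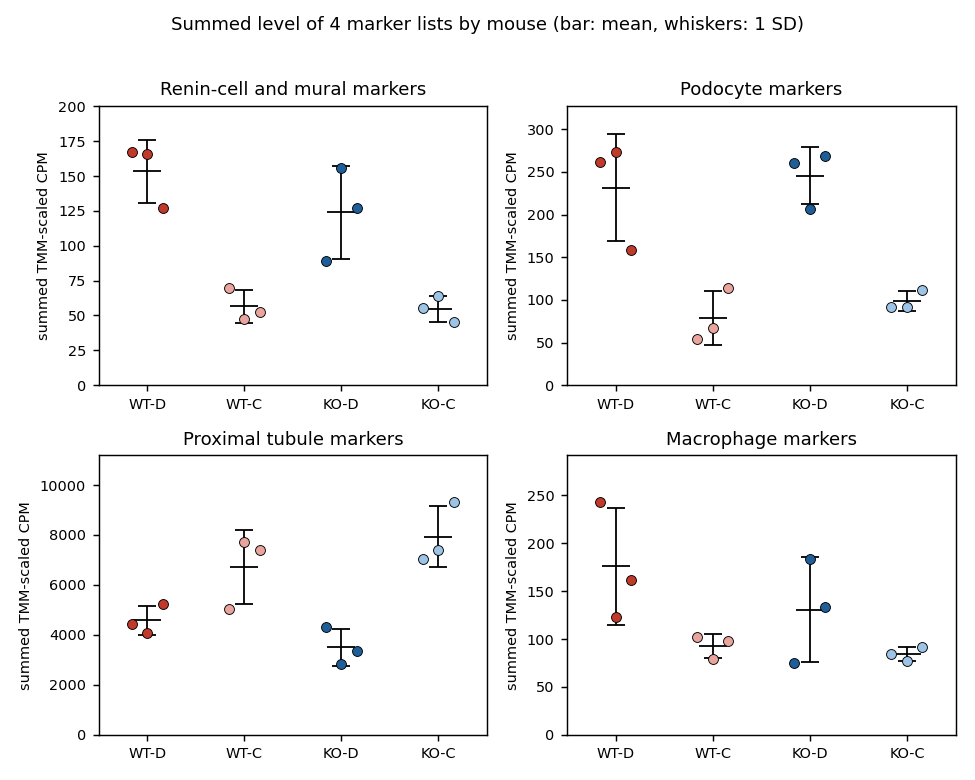
Summed TMM-scaled CPM (y axes, from 0) of the markers of renin and mural cells (12 genes), podocytes (8), proximal tubule (10) and macrophages (8) in each mouse of the WT-D, WT-C, KO-D and KO-C groups. Points are mice, bars means and whiskers 1 SD (n = 3). Renin and mural cell markers reach 127 to 167 CPM in WT-D against 47.4 to 70.0 CPM in WT-C, and proximal tubule markers are lower in KO-D (2840 to 4310 CPM) than in KO-C (7050 to 9320 CPM).

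Of 14 genes known to bear on renin synthesis and release, salt transport at the macula densa included, 5 were called higher in each genotype and none lower. Of all genes, 13.7% were called higher in wild-type and 13.6% in knockout diabetes. The list was not split by whether a gene raises or lowers renin, so its counts give no direction for renin. Averaged over genotypes, 10 of 14 were called higher, where 4045 of 18461 genes were, with a median change of 0.74 beside 0.01 over all genes. Kcnj1, which encodes the apical potassium channel ROMK of the thick ascending limb, rose by 1.03 (SE 0.15, adjusted p = 0.000212 in limma) and Npr1, the receptor of atrial natriuretic peptide, by 1.00 (SE 0.20, adjusted p = 0.00174). Ptges, a prostaglandin E synthase, rose by 0.71 (SE 0.15, adjusted p = 0.00251). Ptgs2, the cyclooxygenase of the macula densa, stood at 0.95 CPM in WT-D and 1.18 in KO-D, against 0.242 in WT-C and 0.198 in KO-C, and rose by 1.86 over both genotypes (SE 0.37, adjusted p = 0.00148). Under the alternatives that value ran from 0.73, with a pseudocount of 1, to 2.27, with a call each time. In the wild type alone the Ptgs2 difference of 1.52 was not called (adjusted p = 0.0535), though it was in 9 of 21 alternatives. Of 12 genes known to respond to angiotensin and aldosterone, 5 were called higher in each genotype and none lower. Over both genotypes 6 were called higher and 1 lower, with a median change of 0.31 beside 0.01 over all genes, of which 43.5% were called. The genes called higher include the subunits of the epithelial sodium channel Scnn1a (0.71), Scnn1b (0.74) and Scnn1g (1.07) and the thiazide-sensitive cotransporter gene Slc12a3 (1.31), all as log2 changes over both genotypes (adjusted p 3.4e-05 to 0.000157 in limma). The gene called lower was Slc9a3, which encodes a sodium-proton exchanger of the proximal tubule and fell by 0.30 (adjusted p = 0.0247). That call was lost without any of 4 libraries, and on unscaled CPM the value was 0.061 (adjusted p = 0.721).

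Ace, which encodes angiotensin-converting enzyme (ENSMUSG00000020681, chromosome 11, 105967945 to 105989964, plus strand), fell with diabetes in the knockout. The KO-D mice had 39.9, 61.9 and 41.4 CPM, against 94.5, 115 and 225 CPM in the KO-C mice. The groups did not overlap, and KO-C replicate 3 stood far above the other 2 KO-C mice. Ace fell by 1.52 on the log2 scale (SE 0.31, 0.348-fold, adjusted p = 0.00279 in limma), and the fall was called under each of the 22 alternatives (-1.78 to -1.15). The WT-D mice had 86.2, 73.5 and 83.3 CPM, within the range of the WT-C mice at 60.0, 124 and 107 CPM. The wild-type difference was -0.20 (95% interval -0.87 to 0.48, adjusted p = 0.675), and it was 0.19 on unscaled CPM. The diabetes effect was lower in the knockout by 1.33 (SE 0.44), with an adjusted p of 0.167, so the difference between genotypes was not called. KO-D against WT-D was -0.79 (adjusted p = 0.189) with no overlap, and KO-C against WT-C was 0.54 (adjusted p = 0.615) with overlap. The antisense gene Gm11651 shares 295 exonic bases with Ace and had at most 1 read in any library.

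Enpep encodes aminopeptidase A, which trims angiotensin II to angiotensin III (ENSMUSG00000028024, chromosome 3, 129269175 to 129332720, minus strand). The KO-D mice had 148, 90.2 and 110 CPM, against 154, 154 and 279 CPM in the KO-C mice. The groups did not overlap, although the highest KO-D mouse and the lowest KO-C mouse lay close together. Enpep fell by 0.72 (SE 0.23, adjusted p = 0.0286 in limma). The WT-D mice had 121, 118 and 138 CPM, against 171, 209 and 189 CPM in the WT-C mice, again apart, and the log2 difference of -0.59 (SE 0.23) was not called (adjusted p = 0.0788). It was called by DESeq2 (-0.63, adjusted p = 0.0446), in a fit to the 2 wild-type groups alone (adjusted p = 0.0366) and without KO-C replicate 3 (adjusted p = 0.0289). Over both genotypes Enpep fell by 0.66 (SE 0.16, adjusted p = 0.00539), and the 6 diabetic mice lay below the 6 controls, as they did for 5.4% of all genes. The knockout call was lost on unscaled CPM (-0.38, adjusted p = 0.211), with no filter on low counts, in a fit to the 2 knockout groups alone, and without KO-C replicate 3 (-0.44, adjusted p = 0.112), KO-D replicate 2 (-0.56, adjusted p = 0.112) or KO-D replicate 3 (-0.70, adjusted p = 0.0854). On unscaled CPM the falls over both genotypes were not called for Enpep (-0.29, adjusted p = 0.149) or Ace (-0.50, adjusted p = 0.116).

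Both enzymes are known from the proximal tubule brush border, and most markers of that segment were also called lower in knockout diabetes. Of 10 proximal tubule markers, 1 was called lower in wild-type diabetes, where 8.22% of all genes were. In knockout diabetes 7 were called lower and 3 were not called, where 17.4% of all genes were called lower. They summed to 4090 to 5230 CPM in WT-D, 5020 to 7730 in WT-C, 2840 to 4310 in KO-D and 7050 to 9320 in KO-C. The urate transporter gene Slc22a12 fell by 1.14 over both genotypes (SE 0.15), the phosphate transporter gene Slc34a1 by 1.21 (SE 0.22), the organic anion transporter gene Slc22a6 by 1.10 (SE 0.22) and the albumin receptor gene Cubn by 0.54 (SE 0.12), with limma's adjusted p between 0.000107 and 0.00294. On unscaled CPM the change of Cubn was -0.17 and not called (adjusted p = 0.344). Their part in the Ace and Enpep values was not tested.

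Mme, the gene of neprilysin, which degrades angiotensins and natriuretic peptides (ENSMUSG00000027820, chromosome 3, 63241537 to 63386030, plus strand), was not called in either genotype. The WT-D mice had 110, 125 and 94.8 CPM, against 90.0, 101 and 66.0 CPM in the WT-C mice, with overlap and a log2 difference of 0.37 (95% interval -0.14 to 0.88). The KO-D mice had 76.1, 150 and 130 CPM, against 93.5, 88.6 and 119 CPM in the KO-C mice, and KO-D replicate 1 was the lowest of the 6. That difference was 0.20 (95% interval -0.31 to 0.71).

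Atp6ap2, the (pro)renin receptor and an accessory subunit of the vacuolar proton pump (ENSMUSG00000031007, chromosome X, 12587801 to 12617049, plus strand), ranged over 83.5 to 120 CPM in the 12 mice. Its values were 97.2, 107 and 88.1 CPM in WT-D and 110, 90.5 and 92.0 CPM in WT-C, a log2 difference of 0.00 (95% interval -0.32 to 0.33). They were 120, 93.2 and 117 CPM in KO-D and 83.5, 87.1 and 107 CPM in KO-C, a difference of 0.25 (95% interval -0.07 to 0.58, adjusted p = 0.219 in limma). On unscaled CPM the knockout difference was 0.60 and called (adjusted p = 0.0222).

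Agtr1a, which encodes the main AT1 receptor of rodents (ENSMUSG00000049115, chromosome 13, 30336441 to 30382867, plus strand), did not separate the groups. The WT-D mice had 26.8, 28.3 and 30.6 CPM, inside the range of the WT-C mice at 20.0, 28.5 and 34.7 CPM. The KO-D mice had 25.9, 19.0 and 27.5 CPM, against 21.7, 26.5 and 32.2 CPM in the KO-C mice. The log2 differences were 0.08 (95% interval -0.38 to 0.53) and -0.15 (95% interval -0.60 to 0.31), and both intervals span 0. On unscaled CPM the knockout difference was 0.20.

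Agtr1b, the other AT1 receptor gene of rodents (ENSMUSG00000054988, chromosome 3, 20314473 to 20367177, minus strand), was close to undetected. It had 6, 1 and 0 reads in the WT-D libraries and 0, 2 and 0 in the WT-C libraries. The KO-D libraries had 0, 2 and 1 reads and the KO-C libraries 0, 1 and 0. These 13 reads stand against 11938 of Agtr1a, or 0.109% of the reads of both genes. A count of 0 allows up to 3 reads, which is 0.0446 to 0.126 CPM in these libraries and covers counting error only. The 6 reads of WT-D replicate 1 came from the deepest library, the one with adrenal markers, and Agtr1b is known from the rodent adrenal cortex. The part of those markers was not tested.

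Mas1 encodes the receptor of the heptapeptide that is formed when angiotensin II loses its last residue, an arm known to oppose the AT1 receptor (ENSMUSG00000068037, chromosome 17, 12841079 to 12868143, minus strand). It was low, at 22 to 228 reads per library, and its mean level stood above that of 29.8% of tested genes. The WT-D mice had 2.82, 2.66 and 2.34 CPM, against 1.10, 0.813 and 0.985 CPM in the WT-C mice, with no overlap. Mas1 rose by 1.35 on the log2 scale (SE 0.29, 2.55-fold, adjusted p = 0.00651 in limma). The KO-D mice had 3.25, 1.90 and 3.39 CPM, against 0.763, 1.30 and 0.637 CPM in the KO-C mice, also apart, and Mas1 rose by 1.57 (SE 0.29, adjusted p = 0.00146). The rise over both genotypes was 1.46 (SE 0.21, adjusted p = 1.4e-04), and the difference between genotypes was 0.22 (95% interval -0.66 to 1.11). KO-D against WT-D was 0.09 (adjusted p = 0.914). Both rises were called under all 22 alternatives, at 0.88 to 1.70 in wild-type and 1.01 to 1.90 in knockout mice, with the smallest values at a pseudocount of 1.

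The noncoding gene Airn runs through Mas1 on the opposite strand, and its span (chromosome 17, 12741311 to 12860136) holds 7 of the 10 exon blocks of Mas1 and 87.4% of its exonic bases. The annotated exons of the 2 genes share 0 bases, but Airn is known to be largely unspliced and the library kit did not mark the strand. Reads from unspliced Airn could thus have been counted under Mas1. Airn had 10.6, 11.4 and 12.7 CPM in WT-D, against 5.35, 6.95 and 6.56 CPM in WT-C. It had 9.26, 8.67 and 8.27 CPM in KO-D, against 5.31, 10.5 and 5.22 CPM in KO-C, where KO-C replicate 2 stood above all KO-D mice. Over both genotypes Airn rose by 0.63 (limma adjusted p = 0.00789), which is less than the 1.46 of Mas1. Its part in the Mas1 values was not tested.

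**Figure D3:**
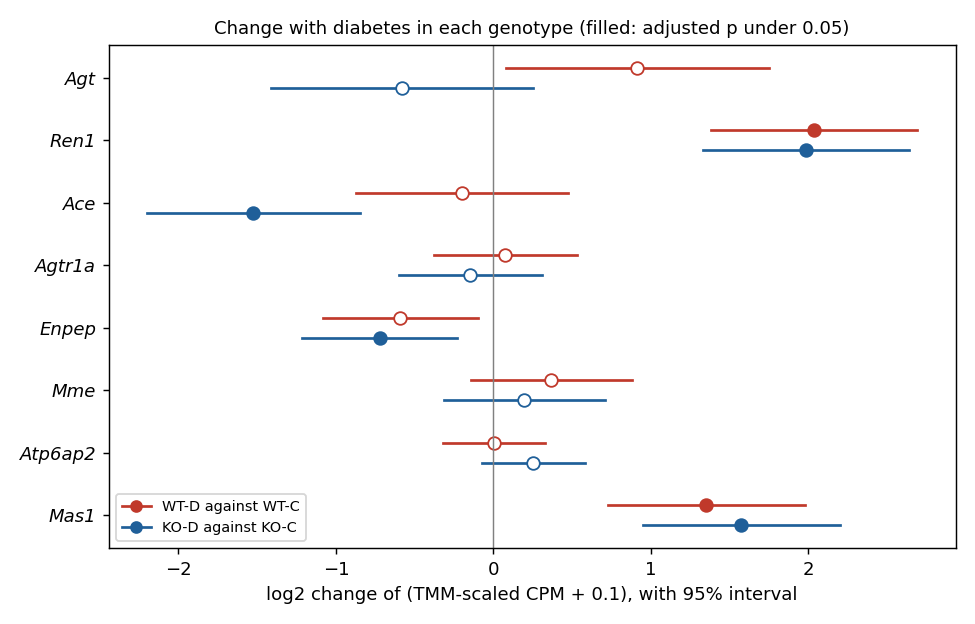
Log2 change with diabetes (x axis) of the 8 tested genes, WT-D against WT-C in red and KO-D against KO-C in blue, with 95% intervals. Filled points are called at an adjusted p under 0.05. Ren1 (2.04 and 1.98) and Mas1 (1.35 and 1.57) are called in both genotypes, Ace (-1.52) and Enpep (-0.72) in the knockout alone, and the points of Agt lie on opposite sides of 0.

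KO-C against WT-C called 0 of 8 (0.0% of all genes by limma), and 0 of the 8 had an unadjusted p under 0.05, as 1546 of 18461 genes did. There edgeR and DESeq2 called 0 of 8 as well, where edgeR called 0 of 18461 genes and DESeq2 13 of 15940 with an adjusted p. KO-D against WT-D called 0 of 8, where 5.53% of all genes were called and 2 of 8 had an unadjusted p under 0.05. Those were Agt and Ace, the 2 genes whose KO-D mice all lay below the WT-D mice, as did 16.2% of all genes. DESeq2 called 1 of 8 there, Agt, where it called 1591 of 15940 genes with an adjusted p. The test for a diabetes effect that differs between genotypes called 0 of 8 (0.0% of all genes by limma). There 2 of the 8, again Agt and Ace, had an unadjusted p under 0.05, as did 2688 of all genes. Both edgeR and DESeq2 called 0 of 8, where edgeR called 0 of 18461 genes and DESeq2 708 of 13441 with an adjusted p. KO-D against WT-C called 4 of 8, where 40.1% of all genes were called. Ren1 (2.18) and Mas1 (1.44) were higher and Ace (-0.99, adjusted p = 0.0237) and Enpep (-0.73, adjusted p = 0.0218) lower. The calls of Ace and Enpep were both lost without WT-C replicate 2, WT-C replicate 3 or KO-D replicate 3, and Ace was also lost without KO-D replicate 1 and Enpep without KO-D replicate 2. On unscaled CPM neither was called (-0.45 and -0.20). KO-D against WT-D and KO-D against WT-C share the KO-D mice, and KO-D against WT-C shares the WT-C mice with WT-D against WT-C.

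Per kb of exon, which allows levels to be compared between genes, Ren1 led in both diabetic groups and in neither control group. It stood at 67.9 ± 9.57 CPM per kb in WT-D and 17.6 ± 7.32 in WT-C, and at 74.7 ± 3.33 in KO-D and 19.9 ± 8.38 in KO-C (mean ± SD, n = 3). In WT-D the order was Ren1, Agt, Atp6ap2, Enpep, Ace, Agtr1a, Mme, Mas1 and Agtr1b. The neighbours Agt and Atp6ap2, and Agtr1a and Mme, overlapped over the 3 mice. In WT-C the order was Enpep, Atp6ap2, Agt, Ace, Ren1, Agtr1a, Mme, Mas1 and Agtr1b. Enpep and Atp6ap2 overlapped there, as did all neighbours between Agt and Mme. In KO-D the order was Ren1, Atp6ap2, Enpep, Agt, Mme, Ace, Agtr1a, Mas1 and Agtr1b, with overlap between all neighbours from Enpep to Agtr1a. In KO-C it was Enpep, Atp6ap2, Ace, Agt, Ren1, Agtr1a, Mme, Mas1 and Agtr1b, with overlap of neighbours from Enpep to Ren1 and of Agtr1a with Mme. Mas1 and Agtr1b were at the low end in every group, at 0.344 to 1.09 and 0.00493 to 0.0151 CPM per kb.

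**Figure D4:**
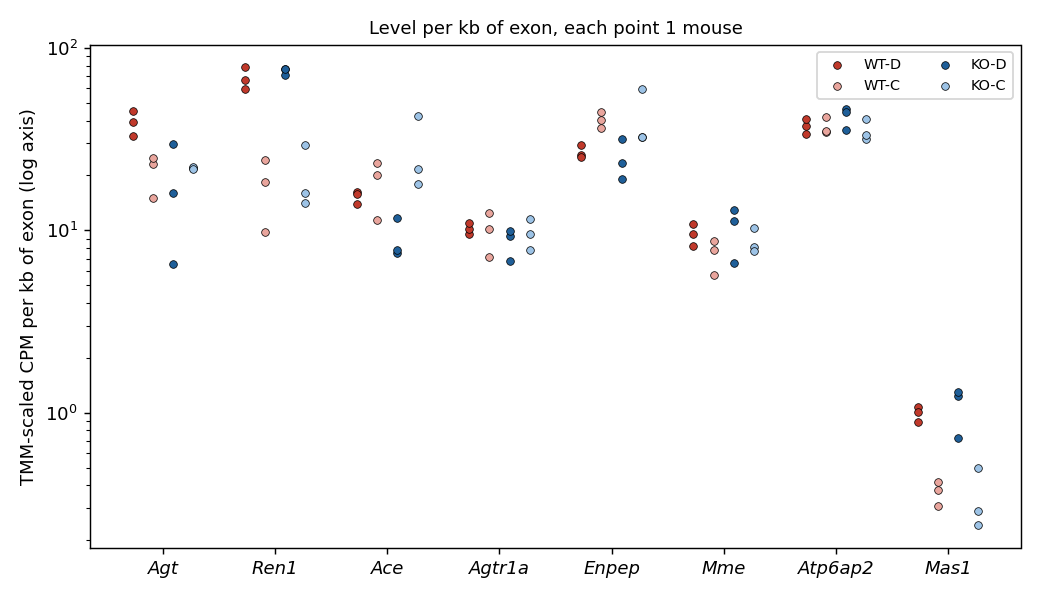
TMM-scaled CPM per kb of exon (log axis) of the 8 tested genes, each point 1 mouse, in the WT-D, WT-C, KO-D and KO-C groups from left to right. Ren1 is the highest gene in WT-D (67.9 on average) and KO-D (74.7) but only rank 5 in WT-C (17.6) and KO-C (19.9), and Mas1 is the lowest of the 8 in each group.

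Of 19 further genes of the angiotensin and kinin pathways in the table, 11 were tested and the other 8 had too few reads. In wild-type diabetes 1 was called higher and 1 lower, where 13.7% of all genes were higher and 8.22% lower. In knockout diabetes 2 were higher and 7 lower, where 13.6% of all genes were higher and 17.4% lower. The median changes were 0.01 and -0.50 beside 0.05 and 0.02 over all genes. The test for a diabetes effect that differs between genotypes called 0 of the 11. Klk1, which encodes tissue kallikrein, the kinin-forming protease of the distal nephron, was called in both genotypes. It averaged 1080 CPM in WT-D against 659 in WT-C, and 1060 in KO-D against 661 in KO-C, and rose by 0.69 in the wild type (adjusted p = 0.0291 in limma) and 0.68 over both genotypes. The wild-type call was lost with no filter on low counts (adjusted p = 0.0717) and in a fit to the 2 wild-type groups alone (0.0781). It was also lost without WT-C replicate 2 (0.0899), WT-C replicate 3 (0.0533), WT-D replicate 2 (0.0689) or WT-D replicate 3 (0.0537). Prcp, a carboxypeptidase that cleaves angiotensin II, averaged 41.3 CPM in WT-D against 66.1 in WT-C and 37.7 in KO-D against 71.2 in KO-C. It fell by 0.69 in the wild type (adjusted p = 0.0258) and by 0.80 over both genotypes (adjusted p = 0.000605), and on unscaled CPM the wild-type change was -0.31 and not called (adjusted p = 0.237). The wild-type call of Prcp was also lost without WT-C replicate 2 (adjusted p = 0.0673), WT-C replicate 3 (0.0593), WT-D replicate 1 (0.126) or WT-D replicate 2 (0.0661).

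Several angiotensin-degrading peptidases were called lower in the knockout. Thop1, which encodes thimet oligopeptidase, averaged 3.09 CPM in KO-D against 8.06 in KO-C and fell by 1.40 (SE 0.29, adjusted p = 0.00293 in limma). For Thop1, KO-D against WT-D was -1.14 (adjusted p = 0.0381 in limma), the 1 call among the 11 genes in that comparison. Ctsa, a lysosomal carboxypeptidase, fell by 0.50 (adjusted p = 0.0207) and Rnpep, aminopeptidase B, by 0.49 (adjusted p = 0.0349). Over both genotypes Dpp3, a dipeptidyl peptidase, fell by 0.56, Anpep, aminopeptidase N, by 0.57, Thop1 by 0.75 and Agtrap, whose product binds the AT1 receptor and promotes its internalisation, by 0.45 (adjusted p 0.00082 to 0.0157). Lnpep, which encodes an aminopeptidase that binds angiotensin IV, rose by 0.35 over both genotypes (adjusted p = 0.0104). In the wild type alone Dpp3 (-0.31), Anpep (-0.31), Thop1 (-0.10) and Agtrap (-0.19) were not called (limma adjusted p 0.132 to 0.832). In the knockout alone Dpp3 (-0.81), Anpep (-0.83) and Agtrap (-0.70) were called lower, as was Thop1. On unscaled CPM the calls of Dpp3, Anpep, Thop1 and Agtrap over both genotypes were lost, and those of Ctsa and Rnpep in the knockout. The Rnpep call was also lost with no filter on low counts (adjusted p = 0.053), with a replicate block (0.0578) and without KO-C replicate 1, KO-C replicate 2, KO-C replicate 3, KO-D replicate 1 or KO-D replicate 3 (up to 0.162). That of Ctsa was lost without KO-C replicate 2, KO-C replicate 3, KO-D replicate 2 or KO-D replicate 3 (up to 0.0857).

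**Figure D5:**
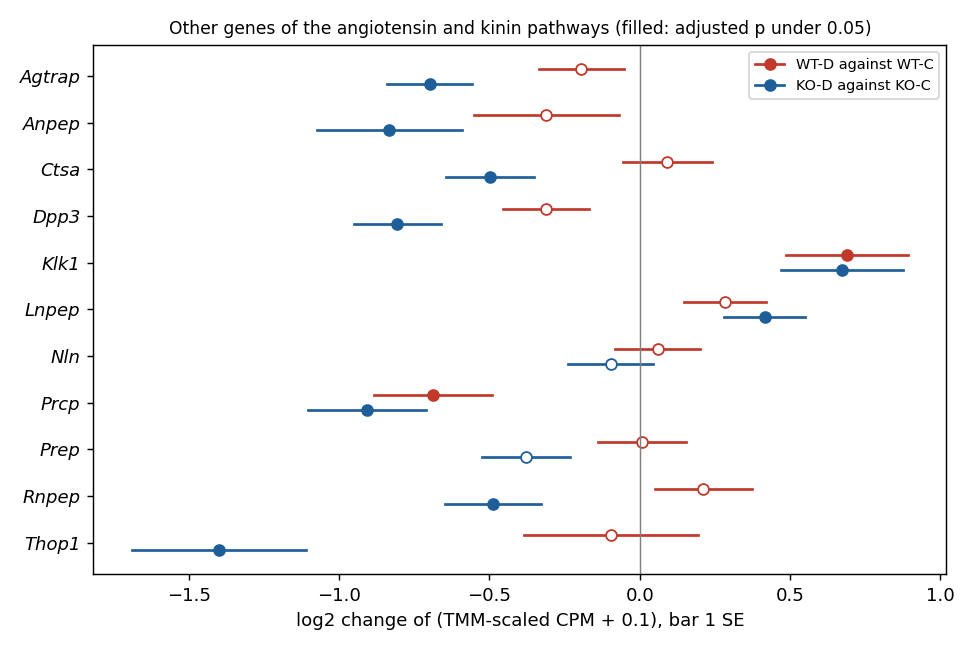
Log2 change with diabetes (x axis, bars 1 SE) of the 11 tested further genes of the angiotensin and kinin pathways, WT-D against WT-C in red and KO-D against KO-C in blue. Filled points are called at an adjusted p under 0.05, which holds for Klk1 and Prcp in the wild type, and for 9 of the 11 genes in the knockout.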

How the data were processed

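Gene names, lists and tests were chosen with earlier results of these data known. The authors aligned reads of unstranded TruSeq RNA V2 libraries with STAR 2.7.3a to mm10 with GENCODE M23, counted them per gene with GenomicAlignments 1.20.1 and deposited a table of CPM, made with R 3.6.1 and edgeR 3.28.0. Each column sums to 1000000. All 298586 values above 0 gave whole reads (tolerance 0.01 reads), which served the filter, the TMM factors and the count tests. A further deposited table holds the authors' log2 fold changes and adjusted p-values of group comparisons, which were not used.

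The main test was limma 3.58.1 (lmFit, eBayes with trend, in R 4.3.3) on log2(TMM-scaled CPM + 0.1), with all 12 libraries, a mean per group and 8 residual degrees of freedom. filterByExpr (edgeR 4.0.16, 10 reads at the median library size, 15 in total) kept 18461 genes. The Benjamini-Hochberg adjustment ran over all tested genes of a comparison, and the code was tested on simulated data. Depth was 23781928 to 67336174 reads. Alternatives were no scaling, RLE scaling, pseudocounts of 0.5 and 1, no filter, a mean of 1 CPM, edgeR's quasi-likelihood test, DESeq2 1.42.0, the compared groups alone, a replicate block and each library left out.

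Genes named were the 9 members, called genes of the further pathway list and up to 4 genes with the smallest p over both genotypes of each other list. Airn, Cdkn2b, Adipoq, Cyp21a1, Gm11651, Slc9a3, Xpnpep2 and Naaladl1 were added after their values were seen. A few genes are not reported here. Likeness was Pearson's r over 12 libraries. Exon lengths are from GENCODE M21, and promoter sequences from RefSeq (GRCm38.p6). Replicate numbers did not pair the mice.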

Additional observations from a re-analysis of the deposited data

How the results depend on the processing

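The rises of Ren1 and Mas1 kept direction and call under all alternatives in both genotypes. The number of the 8 genes called changed under some alternatives, as follows. In WT-D against WT-C it was 4, not 2, in a fit to the 2 groups alone (Agt and Enpep added). In KO-D against WT-D it was 1, not 0, with a mean of at least 1 CPM and with DESeq2, and leaving out each library in turn gave 0 to 1 (1 without KO-D replicate 2). In KO-D against WT-C leaving out a library gave 2 to 4 (2 without WT-C replicate 2, WT-C replicate 3 or KO-D replicate 3), and for the difference of the diabetes effect 0 to 1 (1 without KO-D replicate 2). In WT-D against WT-C it was 3 on unscaled CPM, with DESeq2 and without KO-C replicate 3, KO-D replicate 1 or KO-D replicate 2 (2 to 3 with a library left out). In KO-D against KO-C it was 3, not 4, with no filter, in a fit to the 2 groups alone and without KO-C replicate 3 or KO-D replicate 3. Over both genotypes it was 5, not 4, without KO-D replicate 1. The cause was not tested. Replicate numbers did not pair the mice: same-numbered libraries correlated at -0.35 to 0.30 (mean -0.04 over 18 pairs), and 1 of 12 libraries correlated best with its own number. With a replicate block, 2 of 8 genes were called in WT-D against WT-C and 4 of 8 in KO-D against KO-C, as without it, and the calls of Rnpep in the knockout and Naaladl1 in the wild type were lost.

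For the 9 genes, signs turned only for differences that were not called. Unscaled CPM gave 0.19 for Ace in the wild type and 0.20 for Agtr1a in the knockout, and 0.061 for the called fall of Slc9a3 over both genotypes. RLE scaling gave -0.033 for Atp6ap2 in the wild type, as did DESeq2 (-0.0321), which also gave 0.00815 for the Ren1 difference between genotypes. With libraries left out, wild-type changes ranged from -0.51 to 0.0134 for Ace, -0.14 to 0.26 for Agtr1a and -0.0686 to 0.0922 for Atp6ap2, knockout changes from -0.29 to 0.0148 for Agtr1a and -2.1e-05 to 0.49 for Mme, and KO-D against WT-D from -0.0577 to 0.34 for Mas1. The Ren1 difference between genotypes ranged from -0.338 to 0.317. In all, 670 of 718 values of these genes under alternatives kept their direction and side of the threshold, 18 lost a call, 13 gained one and 17 turned. With 3 mice a group, the Enpep difference of -0.59 log2 units in WT-D against WT-C was not called (limma, adjusted p = 0.0788). Differences of that size can therefore be missed with this spread in Enpep (SE 0.23). The same holds for Agtr1a (SE 0.21) and Mme (SE 0.24), whose SE in that comparison was similar. The smallest difference that could be detected was not computed.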

Other observations

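Of 19 tested subunit genes of the vacuolar proton pump, whose accessory subunit is Atp6ap2, 3 were called higher and 1 lower in WT-D against WT-C, where 22.0% of all genes were called, and 2 higher and 2 lower in KO-D against KO-C, where 31.1% were, with median log2 changes of -0.11 and -0.10. Over both genotypes Atp6v0d2, a subunit known from intercalated cells, rose by 0.71 (SE 0.09, adjusted p = 9.2e-05 in limma), while the proteolipid gene Atp6v0c fell by 0.52 (SE 0.11, adjusted p = 0.00188), Atp6v1g1 by 0.53 (SE 0.12) and Atp6v1f by 0.53 (SE 0.14). On unscaled CPM the 3 falls over both genotypes were not called (-0.15, -0.16 and -0.17). Atp6v0c changed by -0.07 in the wild type (limma adjusted p = 0.76) and by -0.96 in the knockout (0.000534). Atp6v1f changed by -0.35 (0.205) and -0.71 (0.015), and Atp6v1g1 by -0.59 (0.0269) and -0.46 (0.0544). Among 8 tested brush border peptidases, 2 were called higher and 1 lower in WT-D against WT-C, and none higher and 3 lower in KO-D against KO-C. Over both genotypes 1 was called higher and 3 lower, where 43.5% of all genes were called, with a median change of -0.31 beside 0.01 over all genes. Ggt1, which encodes gamma-glutamyltransferase, averaged 739 CPM in WT-D against 1390 in WT-C and 432 in KO-D against 1230 in KO-C, and fell by 1.23 over both genotypes (SE 0.15, adjusted p = 5.0e-05 in limma). Anpep fell by 0.57 and Dpep1, a dipeptidase, by 0.42 (adjusted p = 0.0316), and Dpp4, a dipeptidyl peptidase, rose by 0.29 (adjusted p = 0.0293). The Dpep1 call over both genotypes was lost on unscaled CPM (-0.0581), with no filter on low counts and without any of 6 libraries, and the Dpp4 call without any of 6 libraries. In the wild type alone Anpep (-0.31) and Dpep1 (-0.10) were not called (limma adjusted p = 0.366 and 0.745). In the knockout both were called lower (-0.83 and -0.74, limma adjusted p = 0.019 and 0.0153). In the wild type Xpnpep2 (1.06, adjusted p = 0.0437) and Naaladl1 (1.62, adjusted p = 0.0486) were called higher, calls kept in 13 of 22 and 7 of 21 alternatives.

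Likeness of pattern over the 12 libraries, among 12451 named genes with a mean of at least 1 CPM, is given as a description, since all libraries share the split by diabetes. Ren1 was most like Mki67, the proliferation marker (r = 0.98, rho = 0.83), which had 5.55, 6.47 and 8.32 CPM in WT-D, against 0.631, 1.15 and 1.19 CPM in WT-C. Mki67 had 8.81, 7.32 and 7.32 CPM in KO-D, against 1.12, 2.38 and 0.956 CPM in KO-C. Mas1 was most like Fyb2 (r = 0.97), with Clca3a1 also near (0.96), and Ren1 and Mas1 were alike at r = 0.90. Enpep was most like Mtfr1 (r = 0.98) and Ace most like Ilrun (r = 0.98). Agt was most like Disp1 (r = 0.95), Cox8b (0.95) and H2-DMa (0.94). Cox8b, a cytochrome oxidase subunit of muscle and brown fat, had 7.11, 2.00 and 2.37 CPM in WT-D, against 1.46, 1.21 and 0.577 CPM in WT-C, and 0, 2.96 and 1.16 CPM in KO-D, against 1.14, 2.03 and 0.927 CPM in KO-C. Its KO-D mice stood in the same order as those of Agt.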
